A study of Mus musculus with 4 samples.

Results

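The genes described here are 10 genes of fatty acid synthesis and desaturation, namely Fasn, Acaca, Acacb, Acly, Scd1, Scd2, Elovl6, Srebf1, Me1 and Thrsp. They were chosen by name from the pathway, and all 10 are among the 28889 genes listed across the libraries of mouse liver tumours examined. Hepatocytes make fatty acids from citrate. ATP citrate lyase (Acly) cuts it to acetyl-CoA, the acetyl-CoA carboxylases (Acaca, Acacb) make malonyl-CoA, and fatty acid synthase (Fasn) joins the units into palmitate with NADPH, part of which comes from malic enzyme (Me1). Elovl6 then lengthens palmitate to stearate, and the stearoyl-CoA desaturases place a double bond in it. Scd1 is the main desaturase of mouse liver and fat, while Scd2 is the main one of brain and of the fetal and newborn liver. Srebf1 encodes the transcription factor SREBP-1, which acts downstream of insulin and AKT and switches on most of these genes, and Thrsp (Spot 14) is a lipogenic protein that follows feeding and thyroid hormone.

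The tumours came from male C57BL/6 mice, aged 18 weeks at collection and taken 10 weeks after hydrodynamic tail vein injection, a fast injection that drives plasmids into hepatocytes. Both groups received 2 transposon plasmids, pT3-EF1α-AKT and pT3-EF1α-c-MYC, besides the transposase plasmid SB100X. The vector group also received the pT3 empty vector and the KLF2 group pT3-EF1α-KLF2, which overexpresses KLF2, a flow-responsive transcription factor of endothelium. Each library came from 1 mouse, and the EF1α promoter that drives each transgene is active in most cell types. Every mouse received the AKT plasmid, so no comparison here was designed to set AKT against its absence. Which of the cells carried the plasmid was not tested. Vector replicates 1 and 2 and KLF2 replicates 1 and 2 were labelled. No count matrix of vector replicate 1 was analysed here, so 1 vector library stands against 2 KLF2 libraries. In all fits of KLF2 against vector the spread of a gene therefore comes from the KLF2 pair, which leaves 1 residual degree of freedom. The fits join it with a spread pooled over genes. Small p-values below rest also on that pooling, and they do not measure variation between vector mice.

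Single-cell libraries were read as counts of unique molecular identifiers (UMIs), and levels are given as CPM, the UMIs of a gene over all UMIs of a cell class in a library, scaled to a total of 1000000. The cells that passed the filters numbered 8403 in vector replicate 2, 6209 in KLF2 replicate 1 and 11103 in KLF2 replicate 2. The filters removed 34.6%, 1.16% and 1.22% of barcodes in the same order. Before filtering, the shallowest barcode had 522 UMIs in the vector library and 1000 in each KLF2 library. The libraries differed beyond their labels. Barcodes had a median of 2373 UMIs and 16.3% mitochondrial UMIs in the vector library, against 8784 and 5724.5 UMIs and 0.227% and 0.35% in the KLF2 libraries. Library and treatment cannot be told apart in any KLF2-against-vector value below. Between 550 and 1146 barcode names were shared by pairs of these 3 libraries, but these names are running numbers, not sequences. Klf2 in the compartment defined below stood at 149 CPM in vector replicate 2, 326 in KLF2 replicate 1 and 380 in KLF2 replicate 2. Akt1 there stood at 285, 1273 and 736 CPM and Myc at 47.7, 685 and 478 CPM, in the same order. Whether transcripts of the plasmids were counted with these genes was not tested.

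Clusters were formed without the 10 genes and named from marker lists. Hepatocyte-lineage-like cells, which express plasma protein genes such as Alb, Apoa2 and Ttr, were a single cluster of 564 cells in vector replicate 2 and only 20 and 57 in KLF2 replicates 1 and 2. In their place the KLF2 libraries held 4926 and 7268 cells in 8 unnamed clusters with little Ptprc, the leukocyte surface gene, and 263 and 1010 cholangiocyte-like cells led by Krt19. In the vector library these numbered 3 and 0. Another 1211 unnamed vector cells stayed outside the compartment defined next, which took unnamed clusters under 100 CPM of Ptprc. Those cells had 128 CPM of Ptprc and 576 CPM of hepatocyte-lineage markers. Ptprc in hepatocyte-lineage-like cells stood at 54.0 CPM in vector replicate 2, against 0 and 2.04 in KLF2 replicates 1 and 2. The limit may thus act unequally on the groups, which was not tested. The hepatocyte-lineage-like, cholangiocyte-like and unnamed low-Ptprc cells are joined here as the tumour/parenchymal compartment, of 567, 5209 and 8335 cells. A comparison of it between groups sets the hepatocyte-lineage-like cluster of 1 library against other clusters of the KLF2 libraries. The labels describe hepatocellular carcinoma, yet the 12 hepatocyte-lineage markers summed to 70.8 and 93.1 CPM in the KLF2 compartment and to 6853 CPM in the vector compartment.

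Scd1 and Scd2 are close copies, and whether reads can tell them apart bears on every balance between them, so their sequences are shown first. Both lie on chromosome 19 of GRCm38 and have 6 exons each in their longest coding transcripts, Scd2 at chr19:44293674-44306864 on the plus strand and Scd1 at chr19:44394455-44407879 on the minus strand, 87590 bases apart. Their coding sequences align over 1065 bases with 90.3% identity. The stretch of 90 coding bases in which they differ most has 30 differences, which are in capitals (Scd1 at chr19:44406621-44406710, Scd2 at chr19:44294963-44295052, each in its own 5′ to 3′ direction):
Scd1: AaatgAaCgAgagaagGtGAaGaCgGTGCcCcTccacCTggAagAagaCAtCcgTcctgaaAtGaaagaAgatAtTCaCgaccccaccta
Scd2: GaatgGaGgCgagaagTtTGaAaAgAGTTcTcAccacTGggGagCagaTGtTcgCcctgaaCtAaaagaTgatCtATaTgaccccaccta
At the other end, a stretch of 90 coding bases is identical in both (Scd1 at chr19:44401716-44401805, Scd2 at chr19:44299702-44299791), and a read inside it could not be assigned to either:
Scd1 and Scd2: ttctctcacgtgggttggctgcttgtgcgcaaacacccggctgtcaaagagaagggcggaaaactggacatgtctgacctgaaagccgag
Over whole transcripts, with their long 3′ ends, 4.66% of the 50-base windows of Scd1 (4832 bases) and 3.79% of those of Scd2 (5455 bases) also occur in another Scd gene. How the authors treated reads that match both is not given in the sources used here. The other copies, Scd3 and Scd4, were nearly silent, with at most 3.84 and 0.666 CPM in any named class.

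The first comparison asked how these genes stood in the compartment of KLF2 tumours against that of the vector tumour. Of the 10 genes, 5 were lower in the KLF2 libraries (Scd1, Acacb, Me1, Thrsp and Fasn) and 1 was higher (Scd2) by the edgeR quasi-likelihood test at a Benjamini-Hochberg adjusted p under 0.05. Of all 20435 genes tested, 10.5% were called lower and 13.6% higher. The median fitted change of all genes was 0.69 (log2) with TMM scaling and 1.35 with library totals only. With library totals the split of all genes called was 6269 higher and 1661 lower, against 2776 and 2153. The fitted changes below thus lie under the plain ratios of the CPM values.

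Among the genes that supply acetyl-CoA and malonyl-CoA, Acly (chr11:100476353-100528000, minus strand) stood at 32.8 CPM in vector replicate 2, 67.5 in KLF2 replicate 1 and 62.0 in KLF2 replicate 2. The fitted log2 change was 0.32 ± 0.23 (SE) and did not pass (edgeR adjusted p = 0.374), but with library totals it was 0.98 and passed (edgeR adjusted p = 0.0324). Acaca (chr11:84129672-84401651, plus strand), the cytosolic carboxylase, stood at 18.5, 31.3 and 34.7 CPM in the same order, with a fitted change of 0.17 ± 0.25 (edgeR adjusted p = 0.625). The vector value of both genes lay below both KLF2 values. Acacb (chr5:114146535-114250761, plus strand), the mitochondrial-membrane carboxylase whose malonyl-CoA restrains fatty acid oxidation, was scarce everywhere, at 5.30 CPM in the vector compartment (16 UMIs) against 0.743 and 0.701 in the KLF2 libraries. It fell by 3.53 ± 0.48 on the log2 scale (edgeR adjusted p = 0.0120), and no longer passed when every cell was thinned to 1000 UMIs (-3.39, edgeR adjusted p = 0.174).

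Fasn (chr11:120805846-120824547, minus strand) stood at 157 CPM in vector replicate 2, 85.5 in KLF2 replicate 1 and 92.5 in KLF2 replicate 2. Its KLF2 values lay close together and below the vector value, and the gene fell by 1.48 ± 0.23 on the log2 scale (edgeR adjusted p = 0.0162). Me1 (chr9:86581371-86695953, minus strand) stood at 70.9, 29.6 and 19.7 CPM and fell by 2.18 ± 0.31 (edgeR adjusted p = 0.0138). Thus the synthase and the NADPH-forming malic enzyme were lower, while the citrate lyase and the cytosolic carboxylase were not called in either direction.

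Elovl6 (chr3:129532355-129638495, plus strand), the elongase, stood at 34.8 CPM in vector replicate 2, 40.0 in KLF2 replicate 1 and 52.4 in KLF2 replicate 2, with no called change. Its sign depended on the scaling, at -0.25 ± 0.28 with TMM (edgeR adjusted p = 0.544) and 0.41 with library totals. Scd1 showed a different picture, with 433 CPM in vector replicate 2 against 50.02 and 46.3 in the KLF2 libraries, and it fell by 3.83 ± 0.25 on the log2 scale (edgeR adjusted p = 0.00328). Scd2 ran the other way, at 53.3, 289 and 279 CPM, a rise of 1.75 ± 0.27 (edgeR adjusted p = 0.0161). For both desaturases the KLF2 libraries differed from each other far less than from the vector library.

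Of the regulators, Srebf1 (chr11:60199089-60222581, minus strand) stood at 22.2 CPM in vector replicate 2, 34.8 in KLF2 replicate 1 and 44.7 in KLF2 replicate 2, with a fitted change of 0.18 ± 0.28 (edgeR adjusted p = 0.643). That sign turned to -0.05 when the same number of cells was taken from each library. Thrsp (chr7:97412938-97417730, minus strand) stood at 81.5, 30.9 and 28.3 CPM and fell by 2.12 ± 0.21 (edgeR adjusted p = 0.00685). Without the clusters led by Hbb-bs and Malat1, an alternative chosen after seeing the data, the same 6 genes were called in the same directions.

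**Figure D1:**
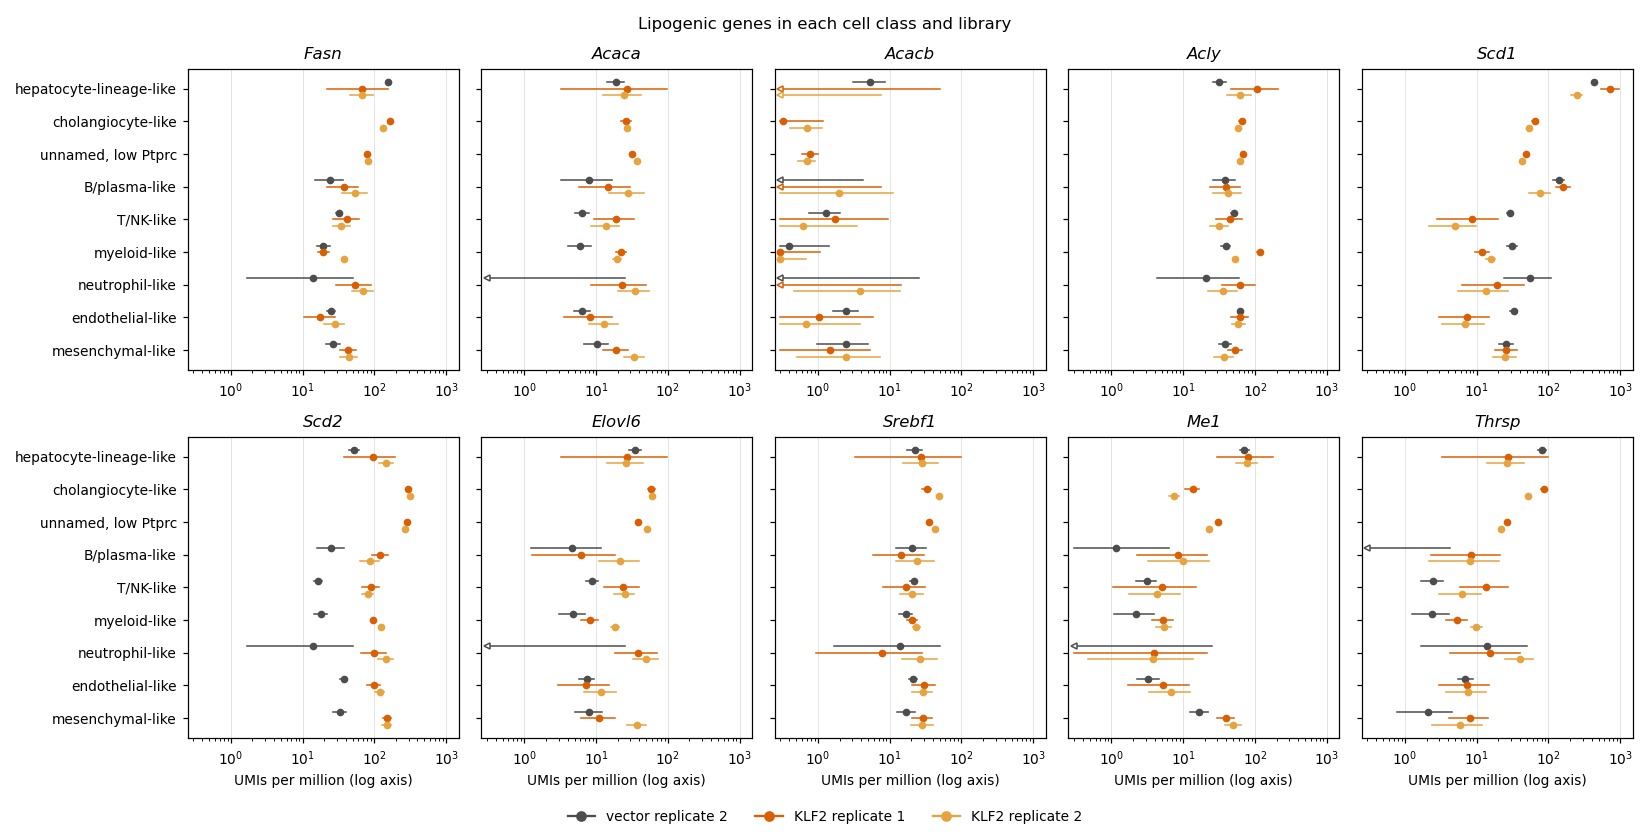
Level of each of the 10 genes (CPM, log axis) in each cell class with at least 10 cells, for vector replicate 2, KLF2 replicate 1 and KLF2 replicate 2. Bars are exact Poisson 95% intervals, which cover counting error only, and open triangles mark 0 UMIs at the left edge. In hepatocyte-lineage-like cells Scd1 reaches 249 to 728 CPM in all 3 libraries, while Scd2 is highest in the cholangiocyte-like and unnamed cells of the KLF2 libraries.

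The same question was then put to hepatocyte-lineage-like cells alone, where the KLF2 side rests on 20 and 57 cells with 74156 and 490806 UMIs. Markers of another type moved with the groups. Cholangiocyte markers summed to 456 CPM in vector replicate 2, 1349 in KLF2 replicate 1 and 5314 in KLF2 replicate 2, hepatocyte-lineage markers to 6889, 17220.5 and 9488 CPM, and Fabp1 stood at 4889, 2306 and 57.0 CPM. Their part in the values below was not tested. None of the 9 genes that passed the filter on low counts was called by edgeR (background 1.88% of 7183 genes called higher and 1.96% lower), and DESeq2 called none of the 10. At an unadjusted p under 0.05, 420 genes of all those tested were higher and 524 lower, and Fasn and Thrsp were among the lower ones. Acacb did not pass the filter, with 0 UMIs in both KLF2 libraries against 16 in the vector library, and a count of 0 allows up to 40.5 and 6.11 CPM there. Scd1 stood at 436 CPM in vector replicate 2, 728 in KLF2 replicate 1 and 249 in KLF2 replicate 2, so the vector value lay between the KLF2 values. Its fitted change was -0.83 ± 1.06 (edgeR adjusted p = 0.903), and turned positive with library totals (0.14) or equal numbers of cells (0.20). Scd2 stood at 51.6, 94.4 and 147 CPM, with overlapping exact Poisson intervals in the vector library and KLF2 replicate 1 (43.8 to 60.4 and 38.0 to 194 CPM). The interval of KLF2 replicate 2 (115 to 185 CPM) lay above that of the vector library.

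Fasn in hepatocyte-lineage-like cells stood at 158 CPM in vector replicate 2 and 67.4 and 67.2 in the KLF2 libraries, with a fitted change of -2.17 ± 0.87 (edgeR adjusted p = 0.175). Thrsp stood at 80.9, 27.0 and 26.5 CPM, with a change of -2.53 ± 0.91 (edgeR adjusted p = 0.101). Me1 stood at 71.3, 80.9 and 77.4 CPM, within 10 CPM of one another. Acly (32.0, 108 and 61.1 CPM), Acaca (18.7, 27.0 and 24.4), Elovl6 (35.0, 27.0 and 26.5) and Srebf1 (22.3, 27.0 and 28.5) complete the set, where the smallest edgeR adjusted p was 0.536, for Elovl6. KLF2 replicate 1 gave only 2 to 8 UMIs for each gene other than Scd1 and Acacb, and KLF2 replicate 2 gave 12 to 72.

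Because both kinds of cell occur in the KLF2 tumours, hepatocyte-lineage-like cells were also set against all other compartment cells of the same 2 libraries, with the library as a block. This test was added after seeing the data. Of the 10 genes, 1 was called higher, Scd1 (3.47% of 17334 genes were called higher and 0.860% lower). Scd1 stood at 728 and 249 CPM in hepatocyte-lineage-like cells against 48.2 and 43.3 in the unnamed cells and 65.7 and 53.1 in the cholangiocyte-like cells, a rise of 2.98 ± 0.65 on the log2 scale (edgeR adjusted p = 0.000279). For Scd2 the values were 94.4 and 147 CPM against 289 and 269 in the unnamed and 292 and 318 in the cholangiocyte-like cells, lower in both libraries, but the change of -1.37 ± 0.66 did not pass (edgeR adjusted p = 0.398). Me1, at 80.9 and 77.4 CPM against 30.8 and 22.7 in the unnamed and 13.5 and 7.53 in the cholangiocyte-like cells, had a change of 1.64 ± 0.57 (edgeR adjusted p = 0.0816), and passed with library totals (edgeR adjusted p = 0.0181) or RLE scaling (edgeR adjusted p = 0.0374). Fasn, at 67.4 and 67.2 CPM against 79.5 and 81.9 in the unnamed and 164 and 133 in the cholangiocyte-like cells, was not called (-0.57 ± 0.59, edgeR adjusted p = 0.878). Thrsp, at 27.0 and 26.5 CPM against 26.7 and 22.1 in the unnamed and 85.5 and 51.5 in the cholangiocyte-like cells, was not called either.

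**Figure D2:**
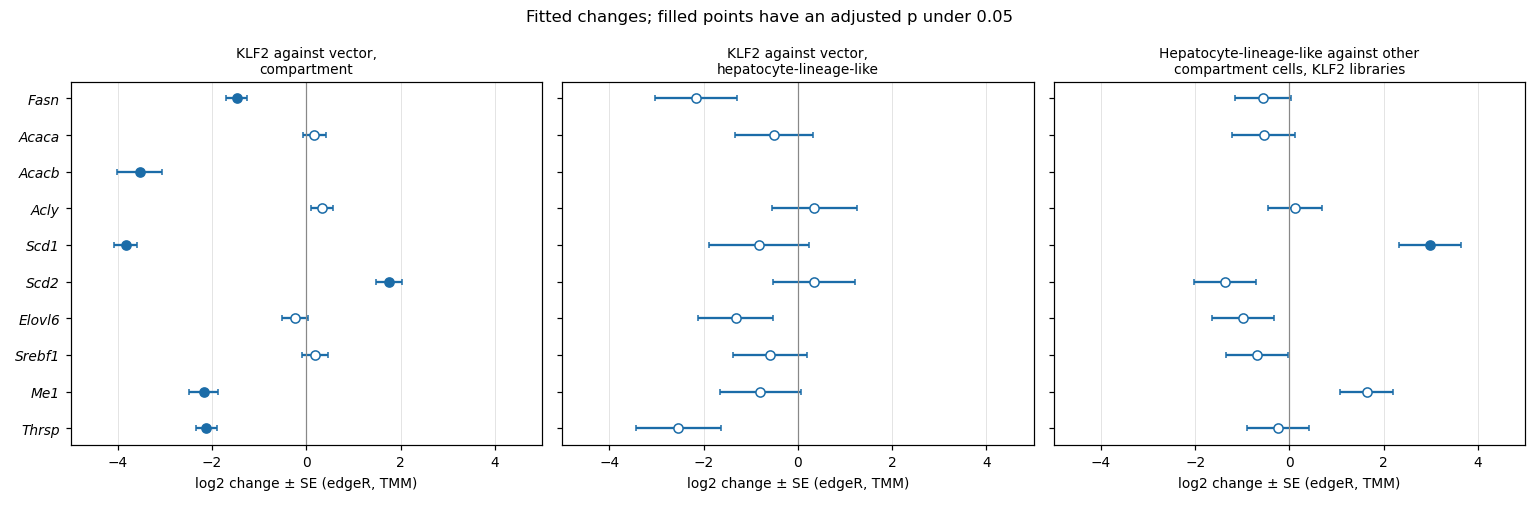
Fitted log2 changes (edgeR, TMM scaling) with SE for KLF2 against vector in the compartment (left), the same in hepatocyte-lineage-like cells (middle) and hepatocyte-lineage-like against the other compartment cells within the KLF2 libraries (right). Acacb is left out of the middle and right plots for lack of UMIs. Filled points have an adjusted p under 0.05. Scd1 is lower by 3.83 on the left and higher by 2.98 on the right.

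The balance of the desaturases was read as the share of Scd1 in the sum of Scd1 and Scd2 UMIs, with Wilson 95% intervals that cover counting error only. In hepatocyte-lineage-like cells Scd1 held 89.4% in vector replicate 2 (87.7 to 90.9), 88.5% in KLF2 replicate 1 (78.2 to 94.3) and 62.9% in KLF2 replicate 2 (55.9 to 69.4). Bex1, a gene of the unnamed KLF2 cells, read 108 and 143 CPM in the KLF2 hepatocyte-lineage-like cells. Scd2 UMIs per Bex1 UMI there were 0.875 (7 over 8 UMIs) and 1.03 (72 over 70), against 0.700 and 0.780 in the unnamed cells. How much of this Scd2 is free RNA or doublets was not tested. In the unnamed compartment cells Scd1 held 14.3% (13.9 to 14.7) in KLF2 replicate 1 and 13.8% (13.4 to 14.3) in KLF2 replicate 2. In cholangiocyte-like cells it held 18.3% and 14.3%. The 3 unnamed low-Ptprc cells of the vector library gave 1 Scd1 and 6 Scd2 UMIs, a share of 14.3% with an interval of 2.57% to 51.3%. Over the whole compartment the shares were 89.0%, 14.8% and 14.2%. Divided by transcript length they became 90.2%, 16.4% and 15.8%. Lengths this alike (4832 and 5455 bases) could not have turned the order, so this step is no test of it.

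In single cells thinned to 1000 UMIs, a step that leaves out shallower cells (21 in the vector compartment, none in the KLF2 libraries), the 2 genes were seldom seen together. In the vector compartment 25.6% of 546 cells had a UMI of Scd1 alone, 2.38% of Scd2 alone and 0.916% of both. In KLF2 replicate 1, 2.71% of 5209 cells had Scd1 alone, 18.7% Scd2 alone and 0.960% both. KLF2 replicate 2 gave 2.62%, 18.8% and 0.972% of 8335 cells. The share with both was near what independent detection would give in the vector library (0.875%) and above it in the KLF2 libraries (0.721% and 0.710%). Without thinning, Scd1 was found in 54.9% of vector cells against 30.5% and 26.4% of KLF2 cells, and Scd2 in 14.8% against 67.5% and 62.2%, at median depths of 3428, 9429 and 6954 UMIs. As background for such shares, T/NK-like cells thinned alike had Scd1 alone in 2.80% of vector cells, and Scd2 alone in 6.45% and 8.06% of KLF2 cells.

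**Figure D3:**
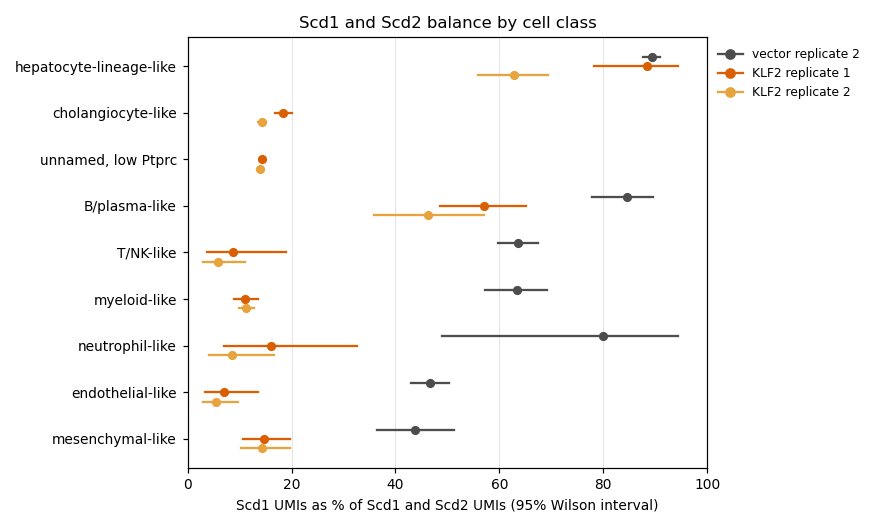
Scd1 UMIs as a percentage of Scd1 and Scd2 UMIs in each cell class with at least 10 cells, for the 3 libraries, with Wilson 95% intervals. Hepatocyte-lineage-like cells lie at 62.9% to 89.4% in all libraries, and the cholangiocyte-like and unnamed cells of the KLF2 libraries at 13.8% to 18.3%.

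Within the KLF2 compartment the clusters differed in which lipogenic genes they carried. These values are a description, since clusters formed from the same cells are no test. Scd2 stood above Scd1 per transcript length in every cluster but the hepatocyte-lineage-like one, at 129 to 405 CPM. Fasn was highest in the cholangiocyte-like cluster (164 and 133 CPM in KLF2 replicates 1 and 2) and in the cluster led by Ldhb and Igfbp2 (121 and 128), and lower in the cluster led by Ibsp and Serpinf1 (64.6 and 57.1). Thrsp separated the first of these from the second, at 85.5 and 51.5 CPM in the cholangiocyte-like cluster but 9.38 and 3.83 in the Ldhb cluster.

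Acaca and Elovl6 had their highest levels in a different place, the cluster led by Mdga2, of 238 and 471 cells. Acaca reached 178 and 190 CPM there against 9.23 to 74.0 in the other compartment clusters, and Elovl6 138 and 246 against 20.2 to 69.2. Mdga2, Cdan1, Plcb1, Ptprt and Nav3 led that cluster, which the marker lists left without a name. Me1 marked the Ibsp cluster (93.3 and 110 CPM), the Defa21 cluster (85.0 and 46.9) and the Mdga2 cluster (63.1 and 51.4) beside the hepatocyte-lineage-like cells, and lay between 5.27 and 13.7 CPM in the remaining clusters. Acly lay between 47.0 and 108 CPM over all clusters. Scd1 in clusters other than the hepatocyte-lineage-like one was highest in the small Defa21 cluster, at 207 and 73.3 CPM.

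**Figure D4:**
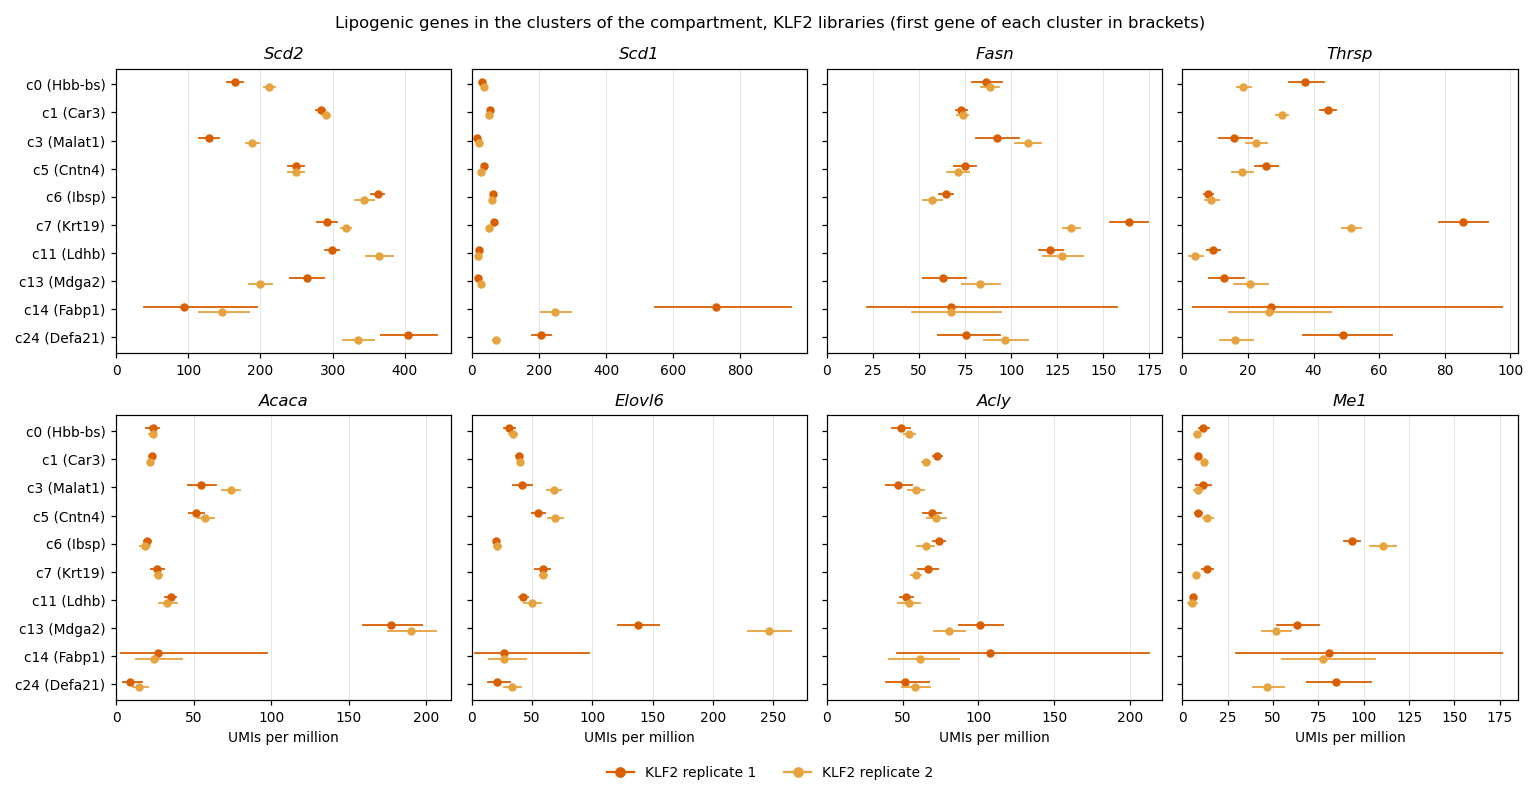
Levels of 8 of the genes (CPM) in each cluster of the compartment in KLF2 replicates 1 and 2, with exact Poisson 95% intervals. Each cluster is named by its number and leading gene. Acaca and Elovl6 peak in the Mdga2 cluster, Fasn and Thrsp in the Krt19 cluster, Me1 in the Ibsp cluster and Scd1 in the Fabp1 cluster, which is the hepatocyte-lineage-like one.

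Outside the compartment, KLF2 was compared with vector in 6 classes, and Scd2 was the member called most often. It was higher in 5 of them by edgeR, with log2 changes of 2.30 ± 0.33 in myeloid-like cells (17.9 CPM in vector replicate 2, 96.4 and 124 in KLF2 replicates 1 and 2), 2.09 ± 0.35 in T/NK-like cells (16.5, 88.8 and 80.8), 1.80 ± 0.48 in B/plasma-like cells (25.2, 121 and 87.3), 1.54 ± 0.49 in mesenchymal-like cells (33.2, 150 and 149) and 2.69 ± 0.92 in neutrophil-like cells (13.8, 100.3 and 144). The edgeR adjusted p ran from 5.07e-08 in T/NK-like cells to 0.0478 in neutrophil-like cells. Genes called higher made up 12.7% of all genes tested in myeloid-like, 11.3% in T/NK-like, 8.02% in B/plasma-like, 11.1% in mesenchymal-like and 5.43% in neutrophil-like cells. In endothelial-like cells Scd2 stood at 37.2, 98.1 and 119 CPM and just missed the threshold (1.17 ± 0.31, edgeR adjusted p = 0.0536), but it passed under 10 alternatives, with RLE scaling (edgeR adjusted p = 0.0312) and equal numbers of cells (edgeR adjusted p = 0.0117) among them. The B/plasma-like call was lost with DESeq2 (adjusted p = 0.473), no filter (edgeR adjusted p = 0.439), thinning (edgeR adjusted p = 0.143) and equal numbers of cells (edgeR adjusted p = 0.0841), at changes of 1.72 to 1.79. The mesenchymal-like call was lost with DESeq2 (adjusted p = 0.0925), thinning (edgeR adjusted p = 0.181) and equal numbers of cells (edgeR adjusted p = 0.0805), at changes of 1.52 to 1.61. The neutrophil-like call rests on 2 UMIs in the vector library and was lost under 7 alternatives.

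Scd1 was lower in KLF2 libraries in 3 of these classes. It stood at 28.9, 8.53 and 4.97 CPM in T/NK-like cells, 32.6, 7.31 and 6.86 in endothelial-like cells and 31.0, 11.9 and 15.7 in myeloid-like cells. The log2 changes were -2.49 ± 0.47, -2.58 ± 0.35 and -1.48 ± 0.28 (edgeR adjusted p = 3.02e-06, 0.00842 and 0.0140), where 9.09%, 6.96% and 7.64% of genes were called lower. Genes called lower made up 7.23% in B/plasma-like, 8.82% in mesenchymal-like and 4.10% in neutrophil-like cells, and genes called higher 7.68% in endothelial-like cells, where no member was called in that direction by edgeR. Acaca rose in myeloid-like cells (5.97, 22.5 and 19.5 CPM, 1.49 ± 0.33, edgeR adjusted p = 0.0226), and Elovl6 rose in T/NK-like cells (8.72, 23.9 and 24.9 CPM, 1.24 ± 0.43, edgeR adjusted p = 0.0225). DESeq2 called neither of the last pair, nor Scd1 in T/NK-like cells (DESeq2 adjusted p = 0.0971). The Acaca call was also lost at resolution 2.0 (edgeR adjusted p = 0.156) and with thinning (edgeR adjusted p = 0.252). The Elovl6 call was also lost with no filter (edgeR adjusted p = 0.0893) and with the top 5% of doublet scores removed (edgeR adjusted p = 0.238). Scd1 in endothelial-like cells no longer passed when cells were thinned to 1000 UMIs or taken in equal numbers, at changes of -3.42 and -2.36. The cells of some classes sat largely in different clusters in the groups. They were mainly cluster 12 in the vector library and clusters 8, 18, 19 and 23 in the KLF2 libraries for the myeloid-like cells, clusters 2 and 10 against 17 for the T/NK-like cells, and cluster 20 against 22 for the B/plasma-like cells.

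Free RNA from broken cells can place UMIs in any droplet, so the levels in these classes are set beside 2 genes that mark the compartment of each group, picked after their values were seen. In the vector library Alb, the serum albumin gene, read 56.3 to 138 CPM in the 6 classes. Scd1 UMIs per Alb UMI lay between 0.400 and 0.547 in T/NK-like, endothelial-like, mesenchymal-like, myeloid-like and neutrophil-like cells, against 0.734 in hepatocyte-lineage-like cells and 1.57 in B/plasma-like cells. In the KLF2 libraries Bex1, at 412 and 345 CPM in the unnamed compartment cells, read 29.2 to 163 CPM in the 6 classes. Scd2 UMIs per Bex1 UMI were 0.700 and 0.780 in the unnamed cells, 0.817 and 0.815 in B/plasma-like cells and 1.04 and 1.31 in T/NK-like cells. They were 1.55 and 1.29 in myeloid-like, 2.17 and 0.882 in neutrophil-like, 1.96 and 2.16 in mesenchymal-like and 3.36 and 2.64 in endothelial-like cells. How much of the Scd1 and Scd2 differences in the 6 classes is free RNA was not tested.

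The classes were next compared with one another, each against the mean of the other 6 classes compared, with the library as a block, over 11856 genes. Cholangiocyte-like and unnamed cells were left out of this comparison. Hepatocyte-lineage-like cells were higher in 5 of the 9 members tested, where 12.4% of all genes were called higher. The log2 differences were 4.05 ± 0.25 for Scd1 (edgeR adjusted p = 1.44e-10), 3.89 ± 0.28 for Me1 (edgeR adjusted p = 1.05e-09), 3.37 ± 0.48 for Thrsp (edgeR adjusted p = 1.61e-05), 1.89 ± 0.33 for Fasn (edgeR adjusted p = 0.000218) and 1.60 ± 0.40 for Elovl6 (edgeR adjusted p = 0.00656). Scd2 (0.64 ± 0.27), Acly, Acaca and Srebf1 were not called. Without vector replicate 2, only Scd1 and Me1 passed, and the difference of Fasn was 0.57, that of Thrsp 1.23 and that of Elovl6 0.12. The calls of Fasn, Thrsp and Elovl6 thus rested on the vector library. In KLF2 replicates 1 and 2 the cholangiocyte-like cells left out here stood above hepatocyte-lineage-like cells in these 3 genes. For Elovl6 the values were 58.8 and 59.6 CPM against 27.0 and 26.5. In Scd1 and Me1 they stood below.

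B/plasma-like cells were the other class high in Scd1, at 139 CPM in vector replicate 2 and 160 and 75.4 in KLF2 replicates 1 and 2, above every other non-hepatocyte class named in each library. The difference was 2.02 ± 0.29 (edgeR adjusted p = 4.07e-05, with 7.71% of genes called higher), and it passed under every alternative run. Scd1 held 84.6%, 57.0% and 46.3% of the Scd1 and Scd2 UMIs there. Mesenchymal-like cells were higher in Me1, at 16.8, 39.0 and 49.96 CPM, by 2.09 ± 0.28 (edgeR adjusted p = 4.14e-06, with 16.6% of genes called higher), again under every alternative run. Scd1 and Me1 were lower in T/NK-like cells (-1.76 and -1.20, with 11.7% of genes called lower), in endothelial-like cells (-1.72 and -1.05, with 9.32%) and in myeloid-like cells (-1.04 and -1.10, with 6.75%), and Acaca in endothelial-like cells (-0.96). In the other directions no member was called by edgeR, where the background was 13% higher in myeloid-like, 13.6% higher in T/NK-like, 16.8% higher in endothelial-like, 6.82% higher and 2.12% lower in neutrophil-like, 4.63% lower in B/plasma-like, 7.45% lower in hepatocyte-lineage-like and 7.78% lower in mesenchymal-like cells. Leaving out KLF2 replicate 1 or 2 left only Scd1 in T/NK-like and endothelial-like cells called among these.

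Around the 10 genes, 8 lists of related genes were counted in the KLF2-against-vector fit of the compartment, beside the 10.5% lower and 13.6% higher of all genes. Fatty acid oxidation had 16 of 20 genes lower and none higher, led by the peroxisomal thiolase Acaa1b (1610 CPM in vector replicate 2, 1.72 and 1.09 in KLF2 replicates 1 and 2), Ehhadh (38.4, 0.861 and 1.06) and the mitochondrial thiolase Acaa2 (515, 28.5 and 23.4). Uptake and binding of fatty acids had 8 of 14 lower, among them the binding proteins Fabp1 (4860, 2.62 and 0.523 CPM) and Fabp2 (110, 0.0944 and 0.458) and the translocase Cd36 (35.1, 1.14 and 2.76). Its 1 higher gene was the lipoprotein receptor Vldlr, with 0 UMIs in the vector compartment and 26.8 and 17.8 CPM in the KLF2 compartment. Genes of triglyceride synthesis and lipid droplets had 15 of 25 lower, such as Mgll (158, 8.32 and 2.59 CPM), Cideb (59.6, 3.17 and 2.64) and the droplet coat gene Plin2 (256, 56.6 and 45.4). Acsl3, an acyl-CoA synthetase of nascent droplets, was the 1 higher (5.30, 53.9 and 68.7). Median log2 changes of these lists were -2.10, -3.67 and -1.23, against 0.69 for all genes.

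Cholesterol synthesis, which shares SREBP control with the 10 genes, had 9 of 22 lower and none higher, among them Fdps (226 CPM in vector replicate 2, 54.3 and 34.7 in KLF2 replicates 1 and 2) and Hmgcs1 (160, 66.9 and 83.9). Supply of acetyl-CoA and NADPH had 6 of 15 lower and none higher, led by pyruvate carboxylase Pcx (53.3, 3.69 and 2.16 CPM), Idh1 (67.9, 22.5 and 21.2) and the citrate carrier Slc25a1 (121, 48.5 and 33.7). The regulators of lipogenesis had 5 of 20 lower and none higher, with the liver X receptor Nr1h3 (39.4, 1.43 and 1.09 CPM), Mlycd (30.1, 9.35 and 8.62) and Prkaa2 (15.9, 7.68 and 9.55) named by the rule. Elongation and desaturation of other chains had 3 of 15 lower, including the desaturase Fads2 (152, 71.4 and 85.3 CPM), and 2 higher, Elovl7 (1.66, 11.8 and 19.6) and the dehydratase Hacd2 (12.6, 82.0 and 85.8). AKT and mTORC1 signalling had 5 of 20 higher and 1 lower, where 13.6% of all genes were called higher. Whether plasmid transcripts were counted with Akt1, a gene of this list, was not tested. The higher ones included the insulin receptor substrates Irs1 (1.32, 18.0 and 17.1 CPM) and Irs2 (4.30, 33.3 and 47.3). In hepatocyte-lineage-like cells, where 1.96% of all genes were called lower and 1.88% higher, 3 of 11 genes of uptake and binding were lower (Fabp2, Fabp4 and Lpl), 3 of 18 of triglycerides and droplets (Cidec, G0s2 and Mgll) and 1 of 16 regulators (Nr1h3). No other gene of the 8 lists was called there by edgeR. Fabp4, Mgll and Nr1h3 were also called lower in T/NK-like cells, while Lpl and G0s2 were not. Fabp4 stood at 322, 5.12 and 22.4 CPM in T/NK-like cells and at 332, 20.8 and 25.8 CPM in B/plasma-like cells (vector replicate 2, KLF2 replicates 1 and 2). How much of the differences in these genes is free RNA was not tested.

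Genes with the most similar pattern were sought for Scd1, Scd2 and Fasn by Pearson's r of log2(CPM + 10) over 26 library-by-class sums and 9283 genes. The sums share libraries, depth and free RNA, so the values only describe. For Scd1 these were Coq8a (r = 0.90), Chchd10 (0.89), Etnk2 (0.85), Stard10 (0.85) and Pcx (0.83). For Scd2 they were Skp1a (0.96), Hspb1 (0.95), Rdh10 (0.94), Prdx2 (0.94) and Nkd1 (0.94). For Fasn they were Tst (0.90), Nipsnap1 (0.89), Cbr1 (0.89) and, from the pathway itself, Thrsp (0.88) and Elovl6 (0.87). Scd1 and Scd2 were nearly unrelated to each other (r = -0.04), while Scd2 ran with Acaca (0.86) and Elovl6 (0.77).

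RefSeq promoter windows (GRCm38.p6) were at hand for 8 of the 10 genes, and the 250 bases before each start site were searched on both strands for CCAAT, for the E-box CACGTG, for the GC box GGGCGG and for the sterol response element letters TCACNCCAC. Over all 32851 promoters of that length, 33.8%, 6.02%, 32.7% and 1.05% held a match. Of the genes that fell in the compartment, Fasn held 3 CCAAT matches, Thrsp 2 and Acacb 1, and 1 of the 2 start sites of Me1 held 1 and the other none but 3 GC boxes. Of those not called, Acly held 4 GC boxes but no CCAAT match, Elovl6 and Acaca held none of these letters, and 2 of the 3 start sites of Srebf1 held 1 CCAAT each and 2 of the 3 held 2 GC boxes each. No window of the 8 genes held the E-box or the sterol response element letters. The Fasn window is shown with its CCAAT matches in capitals, a pair of which overlap on opposite strands (chr11:120824548-120824797, minus strand, ending at the base before the start site):
Fasn: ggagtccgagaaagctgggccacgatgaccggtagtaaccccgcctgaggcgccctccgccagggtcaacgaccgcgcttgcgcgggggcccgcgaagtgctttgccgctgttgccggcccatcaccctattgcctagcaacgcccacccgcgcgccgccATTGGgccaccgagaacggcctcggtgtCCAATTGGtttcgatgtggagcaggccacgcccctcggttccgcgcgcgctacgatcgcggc
A match describes these letters only, and no binding was measured.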

How the data were processed

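The deposited matrices hold counts of UMIs per gene and cell barcode. They were written by PISA version 1.0 per the file headers, and GRCm38 is the build per the submitters' processing notes. Which aligner, annotation and barcode filter were used was not given in the sources used here. Libraries were made with the DNBelab C Series kit per the labels' protocols. Libraries held 12852, 6282 and 11240 barcodes (vector replicate 2, KLF2 replicates 1 and 2). Vector replicate 1 was not analysed here. Each library is a separate mouse.

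Barcodes under 300 genes or over 25% mitochondrial UMIs were dropped. They were clustered with scanpy 1.11.5 and Leiden (leidenalg 0.10.2, 2000 variable genes without the 10 genes, 30 components, 15 neighbours, resolution 1.0). A cluster was named where its marker list stood at least 1.25 (log2) above the other clusters, a threshold chosen after seeing the data, and led the next list by 0.5, with at least 3 markers found. Unnamed clusters under 100 CPM of Ptprc joined the compartment. Scrublet called 0 doublets, so none were removed.

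Counts were summed per library and class (at least 10 cells) and fitted with edgeR 4.0.16 (quasi-likelihood, TMM, filterByExpr), with Benjamini-Hochberg adjustment over all genes at 0.05. The lone vector library is assumed to vary like the KLF2 libraries. The fits were also run on simulated counts, with the same dispersion for all genes and both groups drawn from the KLF2 profile. Such counts cannot show how the fits behave where library and treatment cannot be told apart. Intervals, and the upper limit that a count of 0 allows (3 counts), cover counting error only.

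The members and lists were chosen with earlier results of these data known. The text names all 10 members. Of each related list it names up to 3 called genes a direction with a mean of at least 10 CPM over the libraries, by size of change. Some genes that this rule names are not reported here. As most alike it names the 5 genes with the highest correlation. Alternatives covered the count model, scaling, filters, resolution, thinning, numbers of cells, doublet scores and each library left out. Promoter windows come from RefSeq (GRCm38.p6) and gene models from GENCODE.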

Additional observations from a re-analysis of the deposited data

How the results depend on the processing

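No paired analysis was possible because the vector group has only 1 library with counts analysed here. Over alternatives, 432 of 503 values for KLF2 against vector and 140 of 163 for classes against one another were counted as unchanged. Within the KLF2 libraries 14 of 16 were. Unchanged requires the same direction and, where a test was run, the same side of the threshold. Fits of KLF2 against vector with 1 KLF2 library left out have no test, so they have no side of the threshold to keep. The cause of the changes below was not tested. The alternatives with library totals only, without the Hbb-bs and Malat1 clusters, and all those within the KLF2 libraries were chosen after seeing the data.

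In hepatocyte-lineage-like cells, library totals turned the log2 change of Acaca to 0.42, Me1 to 0.14, Scd1 to 0.14 and Srebf1 to 0.33, equal numbers of cells turned Scd1 to 0.20, and resolution 0.5 turned Acly to -0.020. Leaving out 1 KLF2 library gave -0.0069 to 0.56 for Acly and -0.32 to 0.56 for Scd2 there, and -0.038 to 0.41 for Srebf1 in the compartment. In the compartment Elovl6 was 0.41 with library totals and Srebf1 -0.054 with equal numbers of cells. Scd1 in mesenchymal-like cells was 0.83 at resolution 2.0.

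With library totals, 2 members were called higher in the compartment. Of all genes there, 6269 were called higher with library totals, and thinning to 1000 UMIs gave 1452 higher and 1328 lower. In hepatocyte-lineage-like cells the counts of genes called higher and lower were 28 and 6 by DESeq2, 34 and 31 thinned, 29 and 9 with equal cells, and 466 and 70 with library totals. Over the 6 other classes, members called higher in KLF2 numbered 7, against 2 by DESeq2, 2 thinned, 4 with equal cells and 11 with library totals. Members called lower numbered 3, against 1 with equal cells.

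Between classes, leaving out 1 library in turn gave 2 to 6 members called higher in hepatocyte-lineage-like cells, 2 to 5 higher and 2 to 8 lower over the 6 other classes. There, 4 were called higher with no filter or with at least 50 cells, and 2 lower with at least 50 cells. Within the KLF2 libraries 2 members were called higher with RLE scaling or library totals.

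The Scd1 share in the vector library became 92.7% thinned and 85.4% (compartment 85.3%) with at most 10% mitochondrial UMIs, and 14.3% thinned in the compartment of KLF2 replicate 1. With at most 10% mitochondrial UMIs, thinned cells with a Scd1 UMI made up 22.5% of hepatocyte-lineage-like and 22.4% of compartment cells in the vector library and 4.09% of compartment cells in KLF2 replicate 2. At resolution 0.5, Scd2 was found in 0% and 17.9% of thinned hepatocyte-lineage-like cells of KLF2 replicates 1 and 2.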
